A study of Mus musculus with 12 samples.

Results

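The genes described here are 52 genes of DNA replication, mitosis and cell cycle entry, followed across 5 groups of mouse cells. They were taken by symbol from a fixed list, and each was read from the brightest probe set, by mean over the 12 arrays, that carries its symbol alone, so that 52 of the 19938 genes measured are described. By role they form 4 classes: 23 genes of S phase replication, 6 regulators of the G1/S transition, 18 genes of G2 and mitosis (G2/M), and 5 G1 cyclins and kinases. The list holds members whose RNA is known to follow the cell cycle and, in the last class, members that receive growth signals before S phase.

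RNA was hybridised to Affymetrix Mouse Gene 1.0 ST arrays, which read many probes along each transcript. Astrocytes (3 arrays) were grown from cortex of postnatal day 3 mice that carry a Sox1-GFP reporter (Sox1+/-) in medium with 10% fetal bovine serum, and GFP-negative cells were sorted before reprogramming. The day 6 cells (3 arrays) are GFP-positive cells, sorted on that day after retroviral Oct4, Klf4, Sox2 and c-Myc had been put into such astrocytes; their medium held 15% serum and 1000 U/ml leukaemia inhibitory factor (LIF). Neural stem cells (NSCs, 2 arrays) of the same reporter genotype came from embryonic day 12.5 to 14.5 telencephalon and grew without serum in N2 medium with bFGF and EGF. Induced pluripotent stem cells (iPSCs) came from Sox1-GFP astrocytes (2 arrays) or from mouse embryonic fibroblasts (MEFs; 2 arrays), and both grew on mitomycin C-treated MEF feeders with 15% serum or serum replacement and 1500 U/ml LIF. The MEF iPSCs are 1 line, iPS-MEF-Ng-20D-17, with a Nanog-GFP-IRES-Puro reporter in place of Sox1-GFP. Day 6 cells that were unsorted or GFP-negative were not analysed here, so whether cells changed or were selected by sorting cannot be told apart. Medium, donor age and the sort go with the groups, so their effects cannot be told apart from those of cell identity. The submitters call the replicates biological, but no label ties them to separate animals or cultures, and the spread that the p-values rest on may be technical.

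As background, a cell licenses its replication origins in G1 by loading the Mcm2 to Mcm7 helicase, then copies its DNA in S phase and separates the copies in mitosis. D-type cyclins with Cdk4 or Cdk6, and E-type cyclins with Cdk2, inactivate the retinoblastoma proteins, which frees E2F factors to switch on the replication genes. The mitotic genes follow later, under B-Myb (Mybl2), FoxM1 and the MuvB complex. Mouse pluripotent cells are known for a short G1 phase with little cyclin D and much cyclin E, whereas astrocytes in culture divide slowly.

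Levels are log2 of the deposited intensity, and a difference is a log2 fold change with its standard error (SE) from limma. A call required a log2 fold change of 1 or more in size and an adjusted p (Benjamini-Hochberg, over all genes) below 0.05. In these bulk samples fewer cycling cells and less RNA per cell cannot be told apart. Array medians lay between 97.9 and 104.9 intensity units, and arrays of a group correlated at 0.9922 to 0.9964 across probe sets. Mean log2 levels of 10 astrocyte markers were 10.52 to 10.76 in the astrocyte arrays and 6.75 to 8.46 in all others, and those of 10 pluripotency genes were 10.50 to 10.81 in the iPSC arrays and 5.88 to 6.91 elsewhere. Though sorted as GFP-positive, the day 6 group was low in neural stem and progenitor markers. The 9 genes averaged 7.47 to 7.56 there, against 9.78 to 9.83 in NSCs and 9.67 to 9.91 in astrocytes. Sox1 itself stood at 8.40 ± 0.13 (SD, n = 3) against 8.13 ± 0.14 (n = 3) in the GFP-negative astrocytes. It was higher at a limma adjusted p under 0.05 but short of the fold limit, at 0.27. Against NSCs 6 of the 9 genes were lower and 0 higher in day 6 cells, though 2 had positive differences, the larger in Pax6 (0.56). The 10 microglial genes averaged 5.93 to 6.69 on all arrays, with 6 lower and 1 higher in day 6 cells than in astrocytes and 7 lower in NSCs at an adjusted p under 0.05 by limma. The higher gene was Laptm5 (1.54 ± 0.21), which was also higher in day 6 cells than in NSCs (2.12 ± 0.23). Astrocyte iPSCs shared this, with Laptm5 higher by 1.92 than in astrocytes and by 2.5 than in NSCs. Neuronal and embryonic blood genes differed between the NSC arrays (8.83 and 9.42 for 8 neuronal genes, 7.97 and 6.71 for 3 blood genes).

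Within groups 2 arrays stood apart. Astrocyte replicate 3 had the lowest level of the 3 astrocyte arrays for 51 of the 52 members, against 34.5% of all genes, the exception being Mybl2. The median SD of the members was 0.24 in astrocytes and 0.05 to 0.08 in the other groups, while that of all genes was 0.10 in astrocytes. On the same array 11 fibroblast and feeder genes averaged 8.42, above 8.04 and 8.15 in the other astrocyte arrays. That list also moved with the comparisons against astrocytes: it averaged 6.34 to 6.48 in day 6 cells and 6.60 to 6.73 in NSCs. Of its 11 genes 6 were lower and 0 higher in day 6 cells by limma (also 0 higher at an unadjusted p under 0.05), 5 were lower and 1 higher in NSCs, and 3 were lower and 5 higher in astrocyte iPSCs. The part of these cells in the results was not tested. Astrocyte iPSC replicate 2 had more of these feeder genes (8.71) than replicate 1 (7.97) and than both MEF iPSC arrays (7.80 and 7.75). Results against astrocytes are therefore also given without replicate 3, and results that moved with an iPSC array are given with that array left out.

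The 47 S phase, G1/S and G2/M members were all at their lowest group mean in astrocytes. With the G1 class included, 48 of the 52 members were lowest there (92.3%), compared with 27.5% of all genes. Relative to each gene's mean over the 5 group means, the S phase class averaged -1.38, -1.32 and -1.81 in the astrocyte arrays. It stood at 0.32, 0.33 and 0.30 in day 6 cells, 0.21 and 0.18 in NSCs, 0.59 and 0.43 in astrocyte iPSCs, and 0.51 and 0.46 in MEF iPSCs. The G2/M class averaged -1.26, -1.14 and -1.63 in astrocytes and between 0.29 and 0.39 on each of the other 9 arrays. Outside astrocytes the G1/S class ranged more widely than the S phase and G2/M classes, from -0.08 in an NSC array to 0.80 in an astrocyte iPSC array. The G1 class ran the other way, at 0.57, 0.71 and 0.35 in astrocytes, 0.50 and 0.49 in NSCs, 0.17 to 0.28 in day 6 cells, and -0.53 to -0.72 in the iPSC arrays. Within each of the first 3 classes no astrocyte array came near an array of another group.

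**Figure D1:**
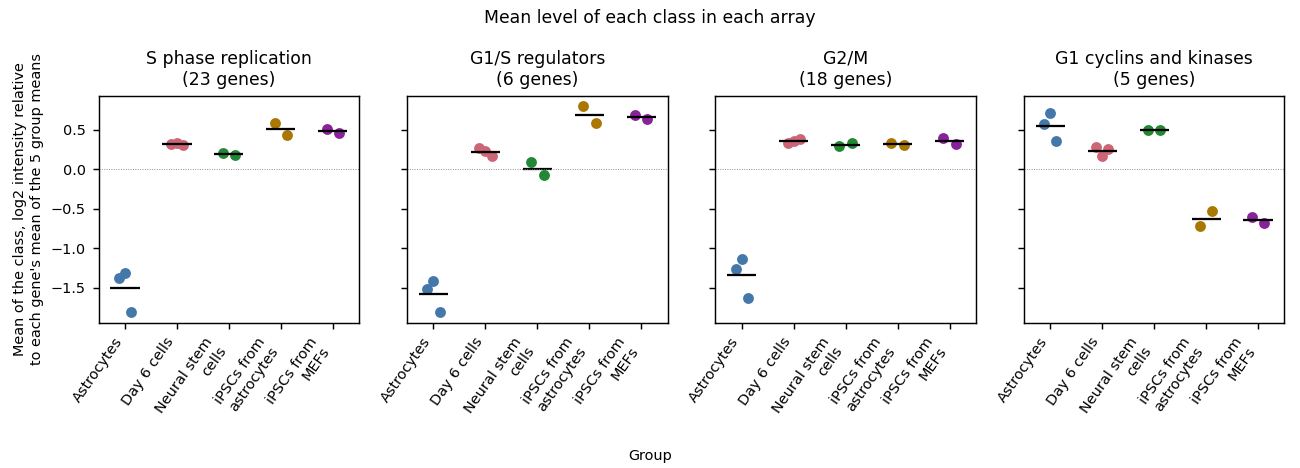
Each panel plots the mean of a class in each array, as log2 intensity relative to each gene's mean of the 5 group means. Points are arrays and bars are group means. Astrocytes lie at -1.14 or below in the S phase, G1/S and G2/M panels, and the iPSC arrays lie below 0 in the G1 panel.

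Day 6 cells and astrocytes were compared to see how the sorted cells differed from the population that received the factors. Replication and mitosis genes were higher in the day 6 cells, and the D-type cyclins Ccnd1 and Ccnd2 were lower. Of the 52 members 45 rose, against 6.75% of all genes, and 2 fell, against 10.1% of all genes, with a median log2 fold change of 1.76 (all genes 0.042). In the S phase class 22 of 23 rose (median 2.06), in the G1/S class 5 of 6 (median 1.85), and in the G2/M class 17 of 18 (median 1.76). The G1 class had 1 member higher and 2 lower (median -0.38). The largest limma adjusted p among the called members was 5.1e-06. The fit pools the spread over all groups, and the members varied most in astrocytes (median SD 0.24, against 0.05 to 0.08 elsewhere). SEs may therefore be too narrow and p-values too small, here and in the other comparisons against astrocytes. Without astrocyte replicate 3 the medians were 1.87, 1.69, 1.57 and -0.45 in the same order, and Rfc3 was no longer called (0.91). Without astrocyte replicate 2, Foxm1 (1.08) and Cdk6 (1.05) were also called.

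The S phase members can be followed from the origin to the fork. Prim1, the primase subunit that makes the RNA primers for new strands, had the largest difference. Its levels were 7.16, 7.12 and 6.36 in the astrocyte arrays and 9.31, 9.24 and 9.24 in the day 6 arrays. They were 9.28 and 8.89 in NSCs, 9.58 and 9.55 in astrocyte iPSCs and 9.44 and 9.34 in MEF iPSCs. Every astrocyte array was thus far below every other array, and the other 4 groups lay close together. The difference of day 6 cells from astrocytes was 2.38 ± 0.18 (5.22-fold, limma adjusted p = 4.04e-07).

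Mcm5, a subunit of the helicase ring, read 7.99, 8.14 and 7.67 in astrocytes and 10.23, 10.21 and 10.23 in day 6 cells. NSCs were at 9.83 and 9.87, astrocyte iPSCs at 10.41 and 10.28, and MEF iPSCs at 10.63 and 10.58. Day 6 cells were above NSCs by 0.37 ± 0.11 (limma adjusted p = 0.0215). Astrocyte iPSCs differed little from day 6 cells (0.12 ± 0.11, limma adjusted p = 0.514) and from MEF iPSCs (-0.26 ± 0.12, limma adjusted p = 0.339). From astrocytes to day 6 cells Mcm5 rose by 2.29 ± 0.10 (4.91-fold, limma adjusted p = 5.18e-09). Mcm7, another subunit of that ring, read 8.39, 8.81 and 8.14 in astrocytes and 10.65, 10.67 and 10.67 in day 6 cells, and rose by 2.22 ± 0.14 (limma adjusted p = 1.19e-07). In NSCs it was at 10.65 and 10.41, and in the iPSC arrays at 10.96, 10.67, 10.91 and 10.84, so that NSCs and astrocyte iPSCs bordered on the day 6 cells from below and above. The remaining ring subunits Mcm2, Mcm3, Mcm4 and Mcm6 rose by 1.94, 2.17, 1.64 and 2.06 on the log2 scale.

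Mcm10, which helps to activate the loaded helicase, was at 7.11, 7.34 and 6.94 in astrocytes and at 9.35, 9.41 and 9.34 in day 6 cells, a rise of 2.24 ± 0.11 (limma adjusted p = 1.41e-08). Its NSC arrays were lower than the day 6 arrays, at 9.05 and 8.91, and its iPSC arrays higher, at 9.91, 9.56, 9.73 and 9.57. Pole, the catalytic subunit of the leading strand polymerase, was at 7.53, 7.65 and 7.07 in astrocytes and at 9.64, 9.71 and 9.75 in day 6 cells. It read 9.46 and 9.57 in NSCs and 9.95, 9.71, 9.79 and 9.82 in the iPSC arrays, and the rise in day 6 cells was 2.28 ± 0.13 (limma adjusted p = 3.45e-08). By group means both genes thus had astrocytes at the bottom, NSCs next and iPSCs at or near the top. For Pole the difference of day 6 cells from NSCs was only 0.19 ± 0.14 (limma adjusted p = 0.322).

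Among the 12 licensing and helicase members 11 rose (median 2.11), and all 6 clamp, clamp loader and polymerase members did (median 2.09), from Rfc3 at 1.03 ± 0.10 to Prim1. The 3 enzymes that supply nucleotides rose by 1.14 (Rrm1), 1.55 (Rrm2) and 2.16 (Tyms), and the histone chaperone subunits Chaf1a and Chaf1b by 1.52 and 2.07. The member not called was Gins2, a subunit of the GINS complex of the active helicase. It read 7.58, 7.80 and 7.35 in astrocytes and 8.21, 8.31 and 8.08 in day 6 cells, a difference of 0.62 ± 0.15 (limma adjusted p = 0.00348) that falls short of the fold limit though the arrays did not overlap. It read 8.41 and 8.26 in NSCs and 8.96, 8.42, 8.90 and 8.70 in the iPSC arrays, so that astrocytes were lowest here too, by a smaller step. Gins1, its partner in that complex, rose by 2.19 ± 0.16. Pcna, the sliding clamp, has a second single-gene probe set, which also gave 1.17. Its means equalled those of the first in all 5 groups at the precision given, so it cannot count as an independent reading.

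Promoters of the 2 S phase members with the largest differences that the RefSeq promoter table holds are shown because the class moved together and E2F factors are its textbook regulators. Each is 300 bases on the gene's strand, from 250 bases before the RefSeq start to 50 after it (build GRCm38.p6). Positions count from the start, whose first base is 1. Capitals mark matches to an E2F motif (TTTCCCGC, TTTGGCGC or TTCCCGCC) or to the CCAAT box (CCAAT), searched on both strands. Prim1 is at chr10:128014965-128015264 on the plus strand and Mcm5 at chr8:75109259-75109558 on the plus strand.
Prim1: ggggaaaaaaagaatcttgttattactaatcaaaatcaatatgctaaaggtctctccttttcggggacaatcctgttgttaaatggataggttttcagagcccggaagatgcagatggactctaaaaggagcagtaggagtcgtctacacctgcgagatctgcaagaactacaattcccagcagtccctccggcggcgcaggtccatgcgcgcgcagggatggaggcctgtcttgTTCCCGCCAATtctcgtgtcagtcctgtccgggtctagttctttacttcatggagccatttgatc
Mcm5: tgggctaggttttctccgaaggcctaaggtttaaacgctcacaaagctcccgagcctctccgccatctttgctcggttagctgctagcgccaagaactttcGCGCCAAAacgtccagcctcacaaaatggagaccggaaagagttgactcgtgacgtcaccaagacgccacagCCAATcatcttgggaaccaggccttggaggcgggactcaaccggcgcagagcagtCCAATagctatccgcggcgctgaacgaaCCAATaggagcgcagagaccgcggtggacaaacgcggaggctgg
In Prim1 an E2F match (TTCCCGCC) starts at -15 and a CCAAT box at -9, so the matches overlap. In Mcm5 the E2F match is on the opposite strand (TTTGGCGC, at -149), and CCAAT boxes lie at -77, -22 and 7.

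Of the S phase promoters 12 of 20 windows, from 19 of the 23 genes, held an E2F match (60%), and 15 held a CCAAT box (75%). Over 19177 windows of genes on the arrays the shares were 4.47% and 37.4%, and over all 32851 RefSeq windows they were 3.21% and 37.4%. Besides Prim1 and Mcm5 the genes with an E2F match were Mcm3, Mcm6, Mcm7, Cdc6, Cdt1, Chaf1a, Pola1, Rfc3, Rfc4 and Rrm1. Median GC content was 57.5% in the S phase windows and 57.3% in the windows of genes on the arrays. TTTCCCGC and TTCCCGCC overlap in a longer run, which was found once as both, in Mcm3. A match is a string of letters in this window and does not show that a factor binds.

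The G1/S regulators held the widest spread of levels. Mybl2, the B-Myb transcription factor, read 6.93, 7.55 and 7.16 in astrocytes and 10.14, 10.05 and 10.20 in day 6 cells. NSCs were lower than the day 6 cells, at 9.27 and 9.05, and the iPSC arrays were above all others, at 11.48 and 10.92 from astrocytes and 11.12 and 11.21 from MEFs. Its rise of 2.92 ± 0.16 in day 6 cells was the largest of the 52 members (7.55-fold, limma adjusted p = 3.39e-08). Cdc25a, the phosphatase that activates Cdk2, read 7.03, 7.10 and 6.80 in astrocytes and 9.25, 9.26 and 9.10 in day 6 cells, and rose by 2.22 ± 0.10 (limma adjusted p = 7.4e-09). Its NSC arrays (9.20 and 9.0) overlapped the day 6 arrays, and its iPSC arrays (9.88, 9.58, 9.78 and 9.82) lay above them.

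Ccne1, Ccne2 and Cdk2, the E-type cyclins and their kinase, rose by 2.02, 1.69 and 1.62 on the log2 scale. E2f1, an activator of the replication genes, was nearly flat, at 8.06, 8.22 and 8.04 in astrocytes and 8.53, 8.51 and 8.32 in day 6 cells. NSCs were at 8.62 and 8.32 and the iPSC arrays at 8.48, 8.35, 8.63 and 8.57. The day 6 difference of 0.35 ± 0.09 (limma adjusted p = 0.00828) was not called, and all 12 arrays lay between 8.04 and 8.63. Of 5 G1/S promoter windows 2 held an E2F match, in Cdc25a and Cdk2, and that of E2f1 held none of the 3 strings.

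The mitotic members were as uniform as the replication members. Bub1b (BubR1), a kinase-like protein of the spindle checkpoint, led them at 2.37 ± 0.10 (5.18-fold, limma adjusted p = 3.93e-09). It read 7.57, 7.66 and 7.26 in astrocytes, 9.79, 9.95 and 9.88 in day 6 cells and 9.46 and 9.65 in NSCs. Its iPSC arrays, at 9.75, 9.67, 9.94 and 9.87, overlapped the day 6 arrays. Aurka, the kinase of centrosomes and spindle poles, read 7.46, 7.47 and 7.16 in astrocytes, 9.57, 9.49 and 9.55 in day 6 cells, and 8.89 and 8.99 in NSCs. The iPSC arrays were at 9.70, 9.70, 9.76 and 9.63, so that NSCs formed a step of their own between astrocytes and the rest. It rose by 2.17 ± 0.08 in day 6 cells (limma adjusted p = 2.2e-09).

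Bub1, the checkpoint kinase at kinetochores, read 7.83, 7.80 and 7.02 in astrocytes and 9.63, 9.71 and 9.67 in day 6 cells, a rise of 2.12 ± 0.17 (limma adjusted p = 6.66e-07). NSCs were at 9.62 and 9.48, just below the day 6 cells, and the iPSC arrays were higher, at 10.33, 10.23, 10.31 and 10.35. Kif11, the motor that pushes spindle poles apart, read 8.34, 8.35 and 7.79 in astrocytes and 10.18, 10.32 and 10.30 in day 6 cells. It was at 9.96 and 10.15 in NSCs and at 10.01, 10.06, 10.07 and 10.05 in the iPSC arrays. The rise from astrocytes to day 6 cells was 2.11 ± 0.13 (limma adjusted p = 7.71e-08). The day 6 mean was highest, but by small steps. It was 0.21 ± 0.15 above NSCs (limma adjusted p = 0.273), and astrocyte iPSCs had -0.23 ± 0.15 against it (limma adjusted p = 0.302). Birc5 (survivin), a subunit of the chromosomal passenger complex, read 7.16, 7.21 and 7.01 in astrocytes and 9.14, 9.05 and 9.16 in day 6 cells, with a rise of 1.99 ± 0.07 (limma adjusted p = 1.03e-09). Its NSC arrays were at 8.86 and 8.78 and its iPSC arrays at 9.43, 9.31, 9.34 and 9.27, again with NSCs between astrocytes and day 6 cells.

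By role, all 7 mitotic kinase and checkpoint members rose (median 1.91), as did all 7 spindle, chromosome and cytokinesis members (median 1.46, from Tpx2 at 1.18 to Kif11). Of the cyclin A and Cdk1 group, Ccna2, Cdk1 and Cdc25c rose by 1.79, 1.39 and 1.39. Foxm1, the forkhead factor of mitotic genes, was at 8.12, 8.36 and 7.87 in astrocytes and 9.06, 9.12 and 9.06 in day 6 cells. Its difference of 0.96 ± 0.11 (limma adjusted p = 1.64e-05) missed only the fold limit. Mki67, the source of the Ki-67 proliferation marker, rose by 1.43 ± 0.12. For Top2a, which untangles sister DNA, the dimmer of its 2 single-gene probe sets gave 0.82 where the one used gave 1.47.

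**Figure D2:**
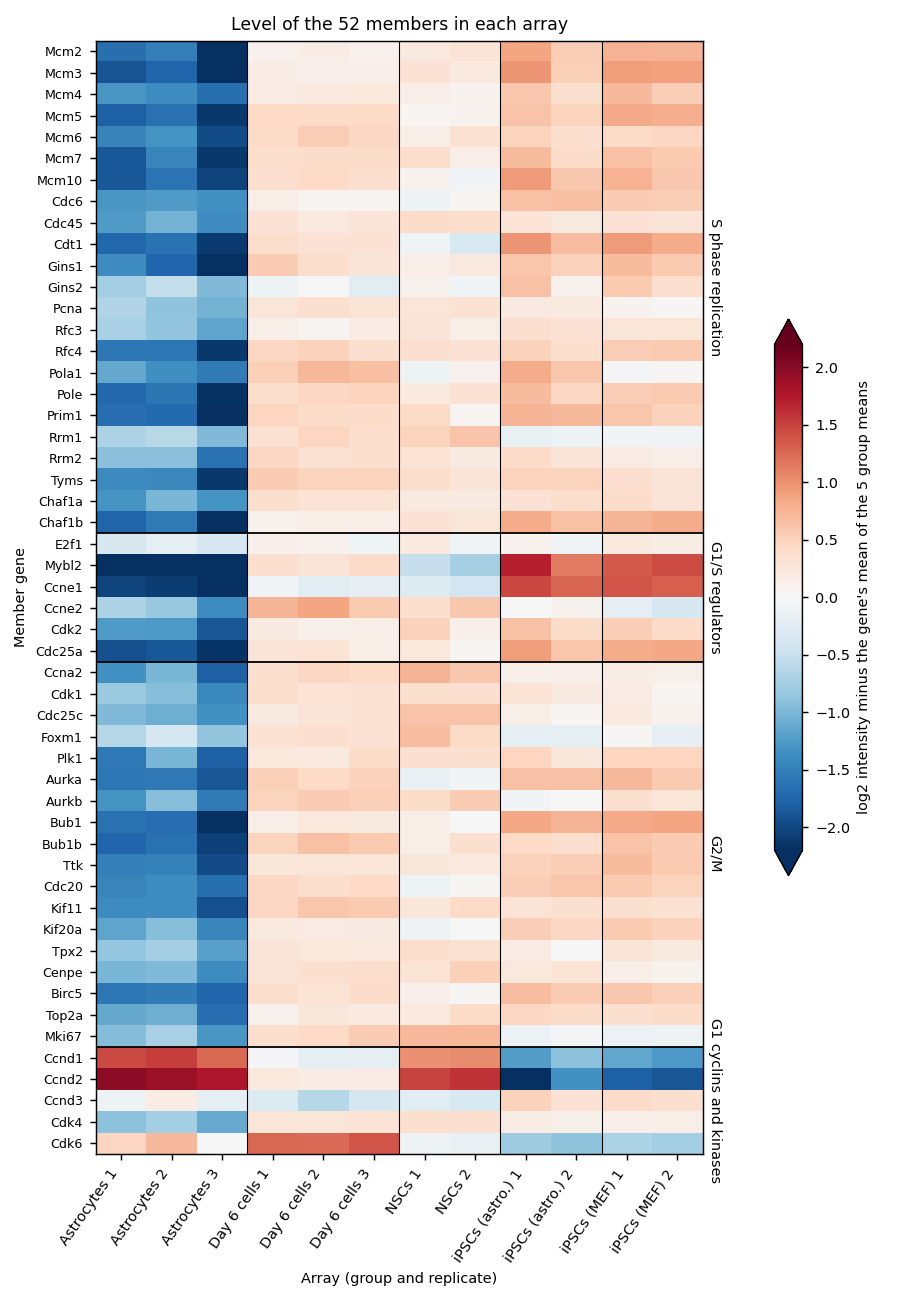
The heat map shows the 52 members (rows, by class) on the 12 arrays (columns), coloured by log2 intensity minus the gene's mean of the 5 group means, with the colour scale ending at the arrows of the bar. The 3 astrocyte columns are blue in the upper 3 classes and replicate 3 is the darkest, while Ccnd1 and Ccnd2 are red in astrocytes and NSCs and blue in the iPSC columns.

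Mitotic promoters are known for a CCAAT box together with a cell cycle genes homology region (CHR), through which MuvB acts. Those of the 2 G2/M members with the largest differences are shown for that reason, at chr2:118597961-118598260 on the plus strand for Bub1b and chr2:172370521-172370820 on the minus strand for Aurka (GRCm38.p6). Capitals mark CCAAT boxes and CHR motifs (TTTGAA or TTCGAA) on either strand.
Bub1b: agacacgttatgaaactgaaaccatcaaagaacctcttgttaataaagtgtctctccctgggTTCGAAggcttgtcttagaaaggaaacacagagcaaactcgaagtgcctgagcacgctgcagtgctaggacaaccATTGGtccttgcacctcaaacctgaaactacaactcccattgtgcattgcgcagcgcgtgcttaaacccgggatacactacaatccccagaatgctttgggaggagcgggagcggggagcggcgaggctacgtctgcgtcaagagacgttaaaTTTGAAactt
Aurka: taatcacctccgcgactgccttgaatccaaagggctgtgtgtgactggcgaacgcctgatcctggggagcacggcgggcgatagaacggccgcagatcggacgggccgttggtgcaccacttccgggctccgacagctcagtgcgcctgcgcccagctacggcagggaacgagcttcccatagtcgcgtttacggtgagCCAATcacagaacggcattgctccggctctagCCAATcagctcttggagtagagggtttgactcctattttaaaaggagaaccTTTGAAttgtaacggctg
Bub1b has a CCAAT box on the opposite strand at -113 and CHR matches at -188 and 41. Aurka has CCAAT boxes at -51 and -19 and a CHR match at 33.

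A CHR match was found in 10 of the 12 G2/M windows (83.3%), compared with 4 of the 20 S phase windows (20.0%) and 16.5% of the windows of genes on the arrays. A CCAAT box was in 11 of the 12 (91.7%), and both motifs were in 10 (83.3%), compared with 6.56% of the windows of genes on the arrays. None of the 12 held an E2F match. The 2 windows with no CHR match were those of Birc5, which had no match of any kind, and Cenpe, which had a CCAAT box. Of all RefSeq windows 19.2% held a CHR match and 7.52% both motifs.

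**Figure D3:**
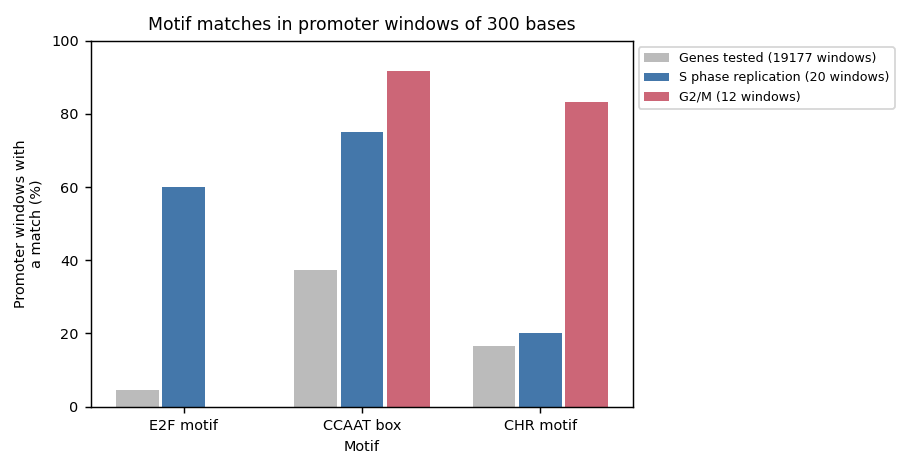
Bars give the percentage of 300-base promoter windows with at least 1 match to each motif on either strand, for windows of genes on the arrays (19177), S phase members (20) and G2/M members (12). E2F matches were in 60% of S phase and in 0.0% of G2/M windows, and CHR matches in 20.0% and 83.3%.

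The G1 class, whose members act upstream of E2F, did not move as a unit. Ccnd1, cyclin D1, read 12.84, 12.91 and 12.65 in astrocytes and 11.34, 11.19 and 11.17 in day 6 cells. NSCs were at 12.39 and 12.42, astrocyte iPSCs at 10.16 and 10.49, and MEF iPSCs at 10.24 and 10.13. The levels thus made 4 steps, with astrocytes highest, then NSCs, then day 6 cells, then both iPSC groups, whose arrays overlapped. In day 6 cells it fell by 1.57 on the log2 scale (-1.57 ± 0.10, limma adjusted p = 7.62e-08).

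Ccnd2, cyclin D2, had the same order of groups and a wider range. It read 13.01, 12.95 and 12.82 in astrocytes, 11.27, 11.21 and 11.22 in day 6 cells and 12.54 and 12.64 in NSCs. Astrocyte iPSCs were at 8.81 and 9.72 and MEF iPSCs at 9.25 and 9.16. The difference of day 6 cells from astrocytes was -1.69 ± 0.17 (limma adjusted p = 5.1e-06). The astrocyte iPSC arrays differed more from each other than the arrays of any other group, and the higher one was replicate 2, which also had the higher feeder genes.

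Ccnd3, cyclin D3, went against the other 2 D-type cyclins in the iPSCs. It read 8.88, 9.16 and 8.80 in astrocytes, 8.70, 8.37 and 8.62 in day 6 cells, 8.75 and 8.66 in NSCs, and 9.50, 9.31, 9.42 and 9.35 in the iPSC arrays. The day 6 value of -0.38 ± 0.11 (limma adjusted p = 0.0125) was not called, and the group means spanned only 0.84. The kinase Cdk4 was lowest in astrocytes like the replication genes, at 10.92, 11.07 and 10.72. It was at 12.09, 12.09 and 12.13 in day 6 cells, 12.18 and 12.19 in NSCs, and 11.99, 11.96, 11.98 and 11.95 in the iPSC arrays. It rose by 1.20 ± 0.08 in day 6 cells (limma adjusted p = 1.37e-07), opposite to the median of its class.

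Cdk6, the other cyclin D kinase, was highest in day 6 cells, at 10.71, 10.69 and 10.83. Astrocytes were at 9.92, 10.16 and 9.46, NSCs at 9.33 and 9.28, and the iPSC arrays at 8.66, 8.56, 8.75 and 8.69. Its 0.89 ± 0.14 over astrocytes (limma adjusted p = 0.000165) was short of the fold limit. None of the 4 windows of the 3 G1 genes in the table (Ccnd3, Cdk4 and Cdk6) held an E2F or CHR match.

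**Figure D4:**
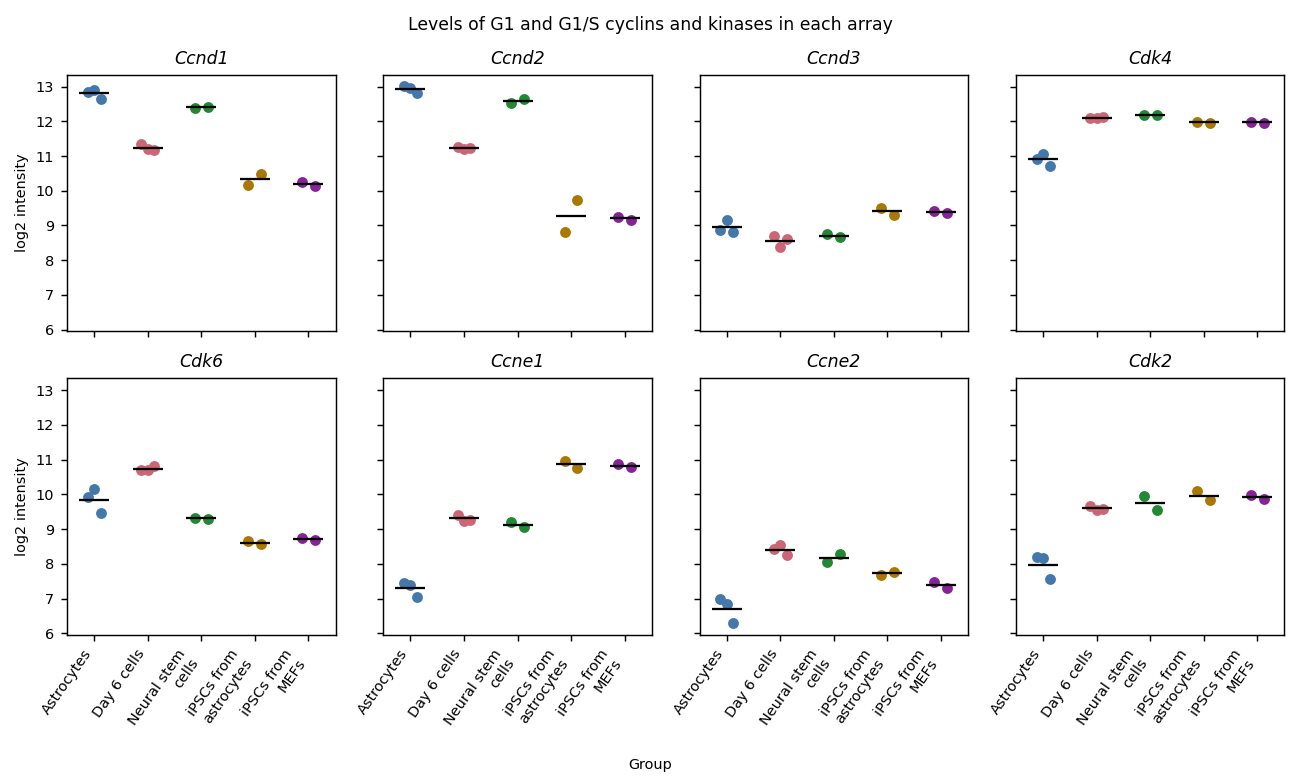
Panels plot the log2 intensity of 8 G1 and G1/S genes in each array (points) with group means (bars). Ccnd1 and Ccnd2 step down from astrocytes through NSCs and day 6 cells to iPSCs, Ccne1 steps up to the iPSCs, and Cdk6 is highest in the day 6 cells.

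The other cell cycle genes on the arrays, in lists that share no gene with the 52, were counted by the same rule. Of 40 other replication genes 35 were higher in day 6 cells than in astrocytes and 0 lower (1 lower at an unadjusted limma p under 0.05; median 1.51). Ticrr, which brings Cdc45 to origins, rose by 2.71 ± 0.10, Dbf4, the activating subunit of the Cdc7 kinase, by 2.45 ± 0.12, and Wdhd1, a fork protein, by 2.27 ± 0.08. Of 46 other mitosis genes 34 were higher and 0 lower, with a median of 1.47. Without the fold limit 1 of them was lower at a limma adjusted p under 0.05. The largest rises were in the condensin subunit Ncapg (2.21 ± 0.13), the spindle motor Kif15 (2.17 ± 0.12) and cyclin F, Ccnf (2.15 ± 0.11). Of 21 other G1 control genes 6 were higher and 1 lower (median 0.63). Cks1b and Skp2, which direct p27 to degradation, rose by 1.79 ± 0.14 and 1.77 ± 0.08, Tfdp1, an E2F partner, by 1.53 ± 0.06, and Rbl2 (p130), a repressor of E2F targets in resting cells, had -1.39 ± 0.08.

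Of 6 cyclin-dependent kinase inhibitors 1 was higher and 3 lower in day 6 cells (median -0.77). Cdkn2c (p18Ink4c) fell by 1.64 ± 0.15 and Cdkn2b (p15Ink4b) had -1.63 ± 0.13, both inhibitors of Cdk4 and Cdk6, and the third was Cdkn1b (p27), at -1.36 ± 0.10. Cdkn2a, which encodes p16Ink4a and p19Arf, rose by 1.45 ± 0.09, from 7.93, 8.23 and 8.11 in astrocytes to 9.51, 9.49 and 9.63 in day 6 cells. It was at 7.19 and 7.16 in NSCs and between 7.57 and 7.99 in the iPSC arrays, so that the day 6 cells stood above all other groups. Of the 14 genes named from these lists, Cdkn2c had the largest limma adjusted p, 2.67e-06.

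NSCs were compared with astrocytes as a reference for dividing neural cells, and S phase, G1/S and G2/M genes were higher there. Of the 52 members 46 were higher, against 6.49% of all genes, and 0 lower, against 8.1% of all genes (median 1.65, all genes -0.032). Higher were 22 of 23 S phase members (median 1.83), 5 of 6 G1/S members (1.81), 18 of 18 G2/M members (1.70) and, of the G1 class, Cdk4 (1.28 ± 0.09, limma adjusted p = 3.4e-07). Mcm3, of the helicase ring, had the largest value at 2.30 ± 0.18 (limma adjusted p = 7.97e-07). Foxm1 was called here, at 1.18 ± 0.13 (limma adjusted p = 1.08e-05). The members with no call were Gins2 (0.76), E2f1 (0.36), Ccnd1 (-0.40), Ccnd2 (-0.34), Ccnd3 (-0.24) and Cdk6 (-0.54). Gins2, E2f1, Ccnd1 and Cdk6 missed only the fold limit (limma adjusted p = 0.00216, 0.0134, 0.00981 and 0.0124). Of the other lists 27 of 40 replication genes and 35 of 46 mitosis genes were higher and 0 lower in both. Without the fold limit 1 replication gene and 0 mitosis genes were lower at a limma adjusted p under 0.05. Without astrocyte replicate 3 the medians of the 4 classes were 1.64, 1.64, 1.58 and -0.39, and Rfc3 and Kif20a were no longer called (0.99 for each).

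Astrocyte iPSCs had the largest single differences from astrocytes, upward in Mybl2 and Ccne1 and downward in Ccnd2. Of the 52 members 44 were higher, against 9.44% of all genes, and 3 lower, against 11.4% of all genes (median 1.89, all genes 0.008). The S phase class had 22 of 23 higher (median 2.14), the G1/S class 5 of 6 (median 2.37) and the G2/M class 16 of 18 (median 1.69). Mybl2 was higher by 3.99 ± 0.18 (15.9-fold, limma adjusted p = 6.56e-09) and Ccne1 by 3.57 ± 0.12 (11.9-fold, limma adjusted p = 5.51e-10). In the G1 class Cdk4 was higher (1.07 ± 0.09) and 3 members were lower. Ccnd2 had -3.66 ± 0.19 (12.6-fold lower, limma adjusted p = 1.99e-08), Ccnd1 -2.48 ± 0.11 (5.57-fold lower, limma adjusted p = 4.62e-09) and Cdk6 -1.24 ± 0.15 (limma adjusted p = 2.71e-05).

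Not called were Rrm1 (0.62), E2f1 (0.31), Foxm1 (0.43), Mki67 (0.89) and Ccnd3 (0.46). Without astrocyte replicate 3 the class medians were 1.95, 2.22, 1.53 and -1.43, and Gins2 (1.0), Pcna (0.98), Ccne2 (0.80), Tpx2 (0.89) and Cdk4 (0.98) lost their call. Without astrocyte iPSC replicate 1, Gins2 (0.84) and Tpx2 (0.94) lost theirs. Without replicate 2 Ccne2 did (0.97), and without astrocyte replicate 2 Mki67 gained one (1.03). For Ccnd2 the value was -3.20 without iPSC replicate 1 and -4.11 without replicate 2. Of the other lists, 34 of 40 replication genes and 31 of 46 mitosis genes were higher and 0 lower in both (medians 1.54 and 1.38). Without the fold limit 0 replication genes and 2 mitosis genes were lower at a limma adjusted p under 0.05. Among the 6 inhibitors 3 were lower and 0 higher. The 3 comparisons share the astrocyte arrays and are not independent of each other.

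**Figure D5:**
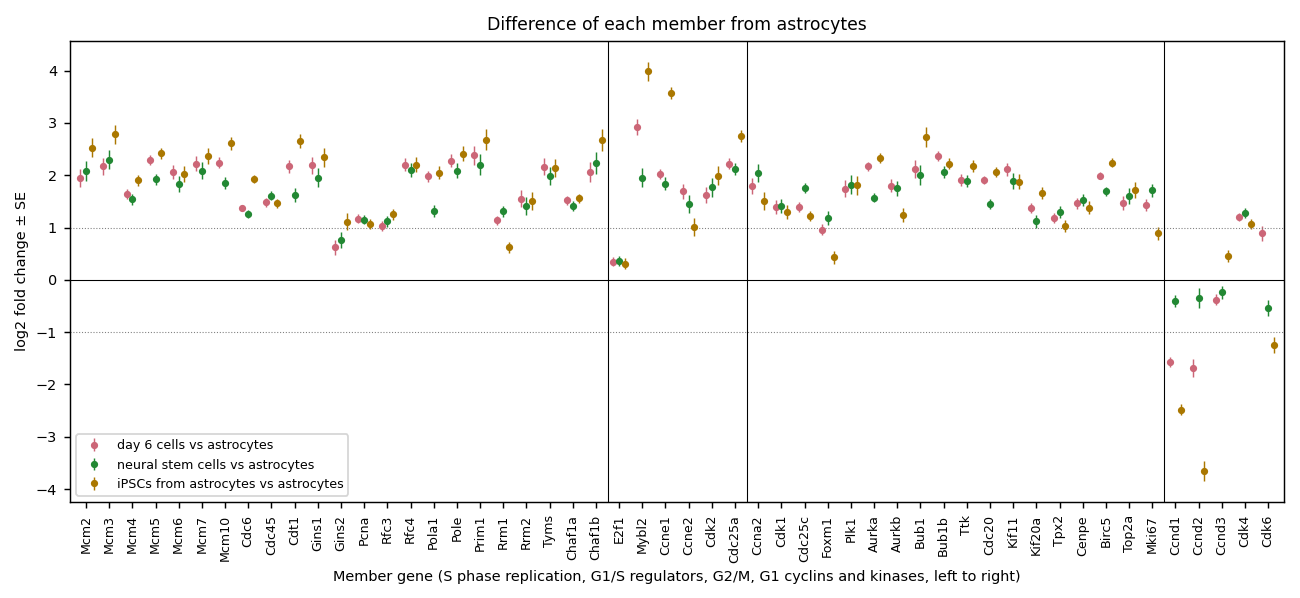
Points give the log2 fold change of each member against astrocytes in day 6 cells, NSCs and astrocyte iPSCs, with bars of 1 SE and dotted lines at the fold limit of 1. All S phase, G1/S and G2/M points are above 0, Mybl2 and Ccne1 are highest in iPSCs (3.99 and 3.57), and Ccnd2 is lowest there (-3.66).

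Day 6 cells were set against NSCs because the title of the series describes a passage through a neural stem cell-like condition. In this comparison 1 member was higher, against 2.94% of all genes, and 2 were lower, against 5.94% of all genes, with a median of 0.10 (all genes 0.075). All 3 were in the G1 class. Cdk6 was higher in day 6 cells by 1.44 ± 0.15 (2.71-fold, limma adjusted p = 2.02e-05), opposite to the median of that class (-0.14). Ccnd1 was lower, at -1.17 ± 0.11 (limma adjusted p = 5.92e-06), and so was Ccnd2, at -1.35 ± 0.19 (limma adjusted p = 0.000173). For 48 of the 52 members the 95% interval of the difference lay within 1 on the log2 scale in either direction, as it did for 86.5% of all genes; the others were these 3 and Mybl2 (0.97, interval 0.57 to 1.37). Mybl2 was called when day 6 replicate 2 (1.01) or NSC replicate 1 (1.07) was left out.

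Within the fold limit, single replication and mitosis genes still differed between day 6 cells and NSCs at a limma adjusted p under 0.05. Pola1, the catalytic subunit of the primase-polymerase complex, was higher in day 6 cells by 0.65 ± 0.12 (limma adjusted p = 0.00116), from 8.69 and 8.89 in NSCs to 9.33, 9.53 and 9.46. Aurka was higher by 0.59 ± 0.09 (limma adjusted p = 0.000391) and Cdt1, the licensing factor that loads the helicase, by 0.55 ± 0.13 (limma adjusted p = 0.00696). Cdc25c, the phosphatase that activates Cdk1, was lower, at -0.36 ± 0.10 (limma adjusted p = 0.0144). In all, 13 of the 52 members had a limma adjusted p under 0.05 irrespective of size. Of these 10 were higher and 3 lower, shares no larger than the 20.0% and 18.4% of all genes. The fit pools the spread over all groups. The median SD of the members was 0.24 in astrocytes but 0.05 in day 6 cells and 0.08 in NSCs, which widens their SEs here and may hold this count down. Against astrocytes the same pooling works the other way and narrows the SEs. Of the other lists 1 of 40 replication genes, 2 of 46 mitosis genes and 1 of 6 inhibitors were higher in day 6 cells, and 1 of 21 G1 control genes was lower. The inhibitor was Cdkn2a (2.37 ± 0.10).

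Between astrocyte iPSCs and NSCs 5 members were called. Higher in iPSCs were 3, against 5.03% of all genes, and lower were 2, against 7.51% of all genes (median 0.18, all genes 0.046). Mybl2 was higher by 2.04 ± 0.20 (limma adjusted p = 7.36e-06), Ccne1 by 1.74 ± 0.13 (limma adjusted p = 7.59e-07) and Cdt1 by 1.03 ± 0.15 (limma adjusted p = 0.000144). Cdt1 lost its call without iPSC replicate 1 (0.89) or NSC replicate 2 (0.91). Ccnd2 had -3.32 ± 0.21 (10.0-fold lower, limma adjusted p = 2.32e-07) and Ccnd1 -2.08 ± 0.12 (limma adjusted p = 1.03e-07). The Ccnd2 value was -2.87 without iPSC replicate 1 and -3.78 without replicate 2. At an adjusted p under 0.05 by limma without the fold limit 24 members differed, 15 higher and 9 lower, against 21.9% and 20.4% of all genes. The 95% interval lay within 1 for 41 of the 52 members, against 80.6% of all genes.

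Against day 6 cells, astrocyte iPSCs had 2 members higher, against 3.29% of all genes, and 2 lower, against 2.82% of all genes (median 0.10, all genes -0.026). Ccne1, at 10.96 and 10.77 in astrocyte iPSCs against 9.41, 9.24 and 9.27 in day 6 cells, was higher by 1.56 ± 0.12 (limma adjusted p = 1.69e-06). Its array values in astrocytes were 7.44, 7.39 and 7.04, and those in NSCs, 9.20 and 9.06, lay just under the day 6 cells. Mybl2 was higher by 1.07 ± 0.18 (limma adjusted p = 0.000849), a call that was lost without iPSC replicate 1 (0.79). Cdk6 had -2.13 ± 0.15 (4.38-fold lower, limma adjusted p = 1.31e-06) and Ccnd2 -1.97 ± 0.19 (limma adjusted p = 1.34e-05), or -1.52 without iPSC replicate 1 and -2.42 without replicate 2. Ccnd1, at -0.91 ± 0.11 (limma adjusted p = 6.21e-05), was called when iPSC replicate 2 was left out (-1.07). The fibroblast and feeder list was higher in iPSCs in 9 of 11 genes in this comparison, and in 9 of 11 with 1 lower against NSCs; its part in these differences was not tested.

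The E-type cyclins, which share the partner Cdk2, parted in the iPSCs. Ccne2 read 6.99, 6.84 and 6.30 in astrocytes, 8.42, 8.54 and 8.25 in day 6 cells, 8.05 and 8.27 in NSCs, 7.69 and 7.76 in astrocyte iPSCs and 7.48 and 7.30 in MEF iPSCs. Its difference of iPSCs from day 6 cells was -0.68 ± 0.17 (limma adjusted p = 0.0111), inside the fold limit, where that of Ccne1 was 1.56. Day 6 cells and NSCs thus had the most Ccne2, and the iPSC groups the most Ccne1. Cdk2 itself read 8.19, 8.18 and 7.57 in astrocytes and between 9.55 and 10.09 on all other arrays.

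In the S phase and G2/M classes no member was called between astrocyte iPSCs and day 6 cells. At an unadjusted limma p under 0.05, 8 S phase members were higher and 1 lower, and 3 G2/M members higher and 3 lower. The share of all genes at an unadjusted p was not counted, so these counts have no background. At a limma adjusted p under 0.05 the S phase class had 6 of 23 higher and 1 lower, against 15.5% and 14.0% of all genes. The licensing and helicase members leaned higher in the iPSCs, 6 of 12 with a limma adjusted p under 0.05 and 0 lower (median 0.31), as in Mcm2 (0.59 ± 0.19) and Mcm3 (0.61 ± 0.18). The G2/M class had 2 higher and 3 lower at that adjusted p (median -0.09). Over all members 12 were higher and 8 lower at that adjusted p without the fold limit, against 15.5% and 14.0% of all genes. Bub1 was higher by 0.61 ± 0.19 (limma adjusted p = 0.0313), whereas Foxm1 (-0.54 ± 0.13), Mki67 (-0.54 ± 0.13) and Aurkb, the kinase of the passenger complex (-0.56 ± 0.14), were lower. Rrm1, the large subunit of ribonucleotide reductase, was lower as well, at -0.53 ± 0.10 (limma adjusted p = 0.00162). Of the other lists 0 of 40 replication genes were called (12 higher and 3 lower at an unadjusted limma p under 0.05), and 2 of 46 mitosis genes and 2 of 6 inhibitors were lower in iPSCs, Cdkn2a among them (-1.68 ± 0.10).

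Foxm1 and Mki67 had their highest group means in NSCs. Foxm1 read 9.42 and 9.17 there and 8.55, 8.54, 8.76 and 8.57 in the iPSC arrays. Mki67 read 9.74, 9.99 and 9.41 in astrocytes, 11.06, 11.13 and 11.25 in day 6 cells, 11.41 and 11.43 in NSCs and 10.56, 10.66, 10.57 and 10.58 in the iPSC arrays. Its 4 levels did not overlap between astrocytes, iPSCs, day 6 cells and NSCs. By group means, 7 of the 18 G2/M members were highest in NSCs, as were 2 of the 23 S phase members and 16.1% of all genes. Highest in astrocyte iPSCs were 3 G2/M members, 7 S phase members and 17.2% of all genes, and highest in MEF iPSCs were 6 G2/M members, 10 S phase members and 16.7% of all genes.

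The iPSCs from astrocytes and from MEFs were compared as pluripotent cells of different origin. Of the 52 members 0 were higher, against 0.461% of all genes, and 0 lower, against 0.281% of all genes. Without the fold limit 1 was higher and 0 lower at a limma adjusted p under 0.05, against 3.28% and 2.49% of all genes. The same 1 was the only member with an unadjusted limma p under 0.05. That gene was Pola1, on the X chromosome, which read 9.62 and 9.41 in astrocyte iPSCs and 8.78 and 8.82 in MEF iPSCs, a difference of 0.72 ± 0.13 (limma adjusted p = 0.00898). For 51 of the 52 members the 95% interval lay within 1 on the log2 scale, against 97.3% of all genes, and Pola1 was the exception (0.43 to 1.01). Ccnd2 differed by 0.06 ± 0.21, Mybl2 by 0.03 ± 0.20 and Ccne1 by 0.03 ± 0.13. The Ccnd2 value averages 2 unlike astrocyte iPSC arrays. It was 0.51 without astrocyte iPSC replicate 1 and -0.39 without replicate 2. The MEF group is a single line, and each group had only 2 arrays.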

How the data were processed

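RNA of 12 samples was hybridised to 12 1-colour arrays. Per the submitters' processing notes the deposited intensities were made with RMA (version not given in the sources used here), which corrects the background, quantile normalizes the arrays and summarises probes on the log scale. The deposited values ran from 20.2 to 15436 and were linear, so log2 was taken here, where the design had assumed log2 values; a constant added before deposit would shrink differences of dim genes. Of 28853 probe sets 21789 carried 1 gene symbol in the platform annotation, 1621 several and 5443 none. Each gene was read from its single-gene probe set with the highest mean, which gave 19938 genes.

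All 12 arrays entered 1 limma fit (3.58.1, R 4.3.3) with a mean per group, 7 residual and 3.9 prior degrees of freedom, and 95% intervals on their sum, 10.9. Summaries and motif searches were made in Python 3.11.15 with numpy 2.4.6 and pandas 2.3.3, and figures with matplotlib 3.10.9. The fit was tested on simulated data. The members and lists were chosen with earlier results of these data known, so counts and medians of lists are descriptions with no test.

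Full array values were given for the G1 class, for the 5 S phase, 2 G1/S and 5 G2/M members with the largest differences between day 6 cells and astrocytes, for members not called there, and for members called against their class. From each other list the 3 genes with the largest differences were named. Other genes were named after their values were seen. Some of the listed pathway and marker genes are not reported here. Promoter windows were found for 39 of the 52 members in the RefSeq table (GRCm38.p6).

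Alternatives were the mean of probe sets, genes above the array median in at least 2 arrays (11905), cyclic loess, median centring, 16 subtracted before log2, a fit of only the compared groups, array weights, the trend and robust options of eBayes, a call without the fold limit or at an adjusted p below 0.01, a block for the replicate number, and leaving out each array in turn. The number of arrays limits the precision.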

Additional observations from a re-analysis of the deposited data

How the results depend on the processing

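No result changed direction while called. Class medians stayed within the pooled SD of their class between arrays of a group (0.116 to 0.151) in 358 recounts and moved further in 30. Of those 30, 9 came without astrocyte replicate 3, 7 with cyclic loess and 5 without astrocyte iPSC replicate 1. Of the recounts of called members 107 were within 1.5 times the reported count, and the other 4 came from dropping the fold limit: 13 members for day 6 cells against NSCs, 24 for astrocyte iPSCs against NSCs, 20 for astrocyte iPSCs against day 6 cells and 1 between the iPSC groups. Leaving out 1 array gave 46 to 49 members for day 6 cells against astrocytes, 44 to 46 for NSCs, 42 to 48 for astrocyte iPSCs, 3 to 4 for day 6 cells against NSCs, and 4 to 5 and 3 to 5 for astrocyte iPSCs against NSCs and day 6 cells; between the iPSC groups it was 0 each time. Cyclic loess took the call from Pcna, Rfc3, Rrm1, Tpx2 and Cdk4 in day 6 cells, from Pcna and Kif20a in NSCs and from Pcna, Tpx2 and Cdk4 in iPSCs, each against astrocytes. Array weights took it from Ccne2 and Tpx2 in iPSCs, and median centring, which moved the median of all genes in day 6 cells against astrocytes by 0.101, gave it to Foxm1 there, as did subtracting 16. No label pairs the arrays by replicate number. The deviations of astrocyte and day 6 replicates 1, 2 and 3 correlated at 0.41, -0.008 and 0.22. Those of MEF iPSC replicate 1 correlated at 0.40 with astrocyte and 0.41 with day 6 replicate 1. Other same-numbered pairs lay between -0.10 and 0.19. Whether the replicate 1 arrays shared a batch was not tested. With the replicate block 45 members in place of 47 were called for astrocyte iPSCs against astrocytes, Ccne2 and Tpx2 being lost. The block changed no other call of a member.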
